A study of Mus musculus with 4 samples.

Results

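Retrovirus infection divides the 4 arrays of this series into 2 sides, with 2 arrays on each. Both infected arrays were compared here with both uninfected arrays across 12604 mouse genes, out of 30869 symbols on the array. Genes entered through their brightest probe, provided that the signal was detected (detection p-value under 0.01) on 1 array or more. A gene was called separated if both infected arrays lay above both uninfected arrays, or both lay below them. The gap of a separated gene is the smallest of its 4 array-to-array differences, on the log2 scale of the normalized signal. By this rule 4644 genes (36.8%) were separated, 2142 of them higher and 2502 lower on the infected arrays.

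All 4 arrays carried total RNA of mouse embryonic fibroblasts (MEFs) of strain FVB;129 with homozygous floxed Rb, hybridised to MouseWG-6 v2.0 BeadChips. On the uninfected side, parental MEFs received a solution without TAT-Cre, and Rb-deleted MEFs received TAT-Cre, a cell-permeable recombinase that excises the floxed Rb gene. Both received medium alone in place of virus. On the infected side, MEFs received TAT-Cre and an MSCV retrovirus carrying murine Rb with an HA tag. One virus carried wild type Rb (WT Rb-HA) and the other carried Rb without its Cdk phosphorylation sites (ΔCdk Rb-HA). Treatments and infections were given 2 times for 1 h, with 3 h between them. According to the study's text all cells were contact arrested, released and then treated with doxorubicin, which damages DNA. The labels do not mention that drug.

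No condition had a second array, and this limits every value below. The spread between the 2 uninfected arrays holds TAT-Cre and the loss of Rb, and the spread between the 2 infected arrays holds the Rb construct. Infection cannot be told apart from TAT-Cre in the comparison with the parental array, nor from the exogenous Rb that both viruses carried, since no empty virus was used. The Rb-deleted array is the uninfected array that shares TAT-Cre with the infected side, and comparisons with it alone are given for several lists. The arrays were on 1 BeadChip, with the uninfected arrays at the first positions, so position and infection cannot be told apart either. An exact permutation test of 2 arrays against 2 cannot give a two-sided p below 0.33.

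Mean deposited intensity was 336 to 346 on the 4 arrays, and 15950 to 16740 probes were detected on each. The MEF label was borne out by fibroblast markers: all 15 listed genes, among them those of collagen I, vimentin and Thy1, were detected on every array, and their summed intensity was 74085 and 82517 on the uninfected arrays and 74610 and 81625 on the infected arrays. Xist, the RNA of the silenced X chromosome, and the Y-linked gene Ddx3y were both detected on all 4 arrays. Rb1 was read by a probe at transcript position 4421, and its intensity of 543 on the parental array compared with 160 after Rb deletion, 181 with WT Rb-HA and 170.1 with ΔCdk Rb-HA. A second Rb1 probe at position 4002 gave 108, 56.7, 51.1 and 52.9 on the same arrays, the last pair not detected. By both probes the 3 TAT-Cre arrays lay below the parental array. The study does not state outright which stretch of Rb1 the viral transcripts carry. In myoblasts it silenced endogenous Rb through the 3′ untranslated region of its mRNA while Rb-HA was expressed from retroviruses. By the probe at position 4421 the infected arrays (181 and 170.1) stayed near the Rb-deleted array (160). Whether these probes read the exogenous Rb was not tested. In the study's immunoblots, Rb protein from both viruses was present at physiologic levels.

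Retroviruses of the MSCV type enter a cell through a transporter at its surface, copy their RNA into DNA and insert it into a chromosome, where host factors can block each step. Cells can sense foreign nucleic acid and answer with type I interferon, which induces a large set of antiviral genes. Replication-dependent histone genes lie in clusters, are transcribed mainly in S phase, and encode the core proteins H2A, H2B, H3 and H4 and the linker histone H1. These and other gene groups, 30 lists in all, are described below.

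Few genes were separated by a wide margin. Median gap was 0.09 for the 2142 genes that were higher on the infected arrays (17.0% of all genes analysed) and -0.08 for the 2502 that were lower (19.9%), and 90.7% of separated genes had a gap under 0.25. The gap exceeded 2 bead standard errors, a measure of error within an array only, for 464 higher and 437 lower genes. It passed 1.6-fold for 7 higher genes (0.0555%) and 3 lower genes (0.0238%). Of the 7, 3 were not detected on either uninfected array, so that their gaps rest on background signal, and the 4 others were detected on all 4 arrays. By comparison, the parental and Rb-deleted arrays differed by more than 1.6-fold for 646 genes, and the 2 infected arrays for 233. The median size of a difference was 0.13 between the means of the 2 sides, 0.20 between the 2 uninfected arrays and 0.14 between the 2 infected arrays. The first of these averages 2 arrays a side and the others set single arrays against each other.

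No gene passed limma's test of infected against uninfected arrays with Benjamini-Hochberg adjustment (0 of 12604, 0%). The smallest adjusted p was 0.84, and 643 genes (5.10%) had an unadjusted limma p below 0.05. All statements that follow on single genes are therefore descriptions of 4 arrays. Without the Rb-deleted array the same limma test called 36 genes, 34 of them lower on the infected arrays, and it called 0 when any other single array was left out. That fit has 1 uninfected array, the parental array, which is assumed to vary like the 2 infected arrays, and its difference also contains TAT-Cre. Among the 36 were Rb1, the interferon-induced genes Rsad2, Oasl1 and Ifit2, the chemokine gene Ccl4, and the leukocyte genes Emr1, Mpeg1, C1qb and Mrc1.

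**Figure D1:**
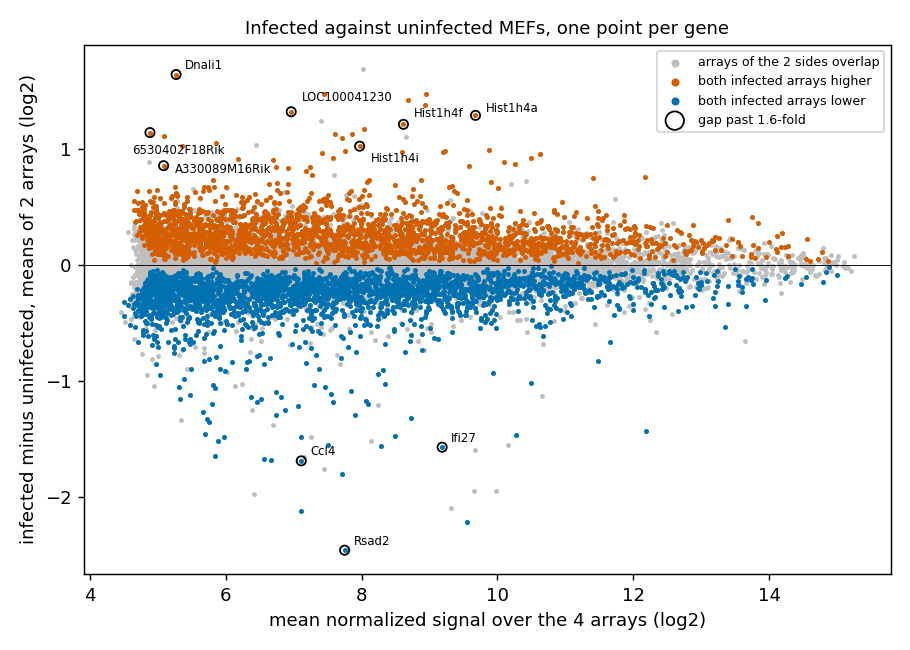
Difference between the means of the 2 infected and the 2 uninfected arrays (log2, vertical axis) against the mean normalized signal of each gene (log2, horizontal axis). Orange and blue points are the 2142 higher and 2502 lower separated genes, grey points are genes whose sides overlap, and the circled genes are the 10 whose gap passes 1.6-fold. Of the separated genes, 90.7% have a gap under 0.25.

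Of the 7 genes higher on the infected arrays past 1.6-fold, 4 were read by histone H4 probes and 3 were not detected on the uninfected arrays. Hist1h4f gave intensities of 324 on the parental array, 254 after Rb deletion, 528 with WT Rb-HA and 704 with ΔCdk Rb-HA, an order of arrays that is kept for all values below, with a gap of 0.81 (bead standard error 0.08). Hist1h4i gave 208, 196, 334 and 421 on the same arrays, with a gap of 0.80 (0.07). Hist1h4a gave 664, 467, 1033 and 1580, with a gap of 0.72 (0.05). For each of these genes the ΔCdk Rb-HA array was the highest and the Rb-deleted array the lowest. LOC100041230, which the array's annotation describes as similar to histone H4, gave 119, 88.5, 188 and 258, with a gap of 0.79 (0.11). In limma's test the difference between the means of the sides was 1.21 for Hist1h4f (standard error 0.21), 1.02 for Hist1h4i (0.17), 1.29 for Hist1h4a (0.26) and 1.32 for LOC100041230 (0.25), each with an adjusted p of 0.84.

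Dnali1, which encodes a light intermediate chain of axonemal dynein, was not detected without infection. Its probe at transcript position 1920 was not well above background on either uninfected array (43.5 and 43.4) and gave 80.3 with WT Rb-HA and 108 with ΔCdk Rb-HA. The mean of the infected arrays was at least 2.15-fold higher, taken against the lowest signal of a detected probe on each uninfected array (adjusted p = 0.84 by limma). A second Dnali1 probe, at position 849, was not detected on any array (34.6 to 43.7), so the 2 probes disagree. A pair of RIKEN transcripts behaved likewise at lower signal. 6530402F18Rik gave 40.9, 37.0, 63.5 and 73.9, and A330089M16Rik gave 48.5, 48.3, 68.3 and 72.1, both undetected on the uninfected arrays. Their bounds were at least 1.44-fold for A330089M16Rik and at least 1.38-fold for 6530402F18Rik, which are short of 1.6-fold. A second 6530402F18Rik probe, at position 8, gave 46.8, 45.7, 54.5 and 43.3. It was not detected on any array, so the 2 probes of this gene disagree too. Across all genes, 56 were detected on both infected arrays and on neither uninfected array, and Dnali1 was the 1 gene among them whose bound passed 1.6-fold.

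The 3 genes lower on the infected arrays past 1.6-fold encode products of the interferon and inflammatory response. Rsad2, which encodes the antiviral enzyme viperin, gave intensities of 1197, 250.4, 134 and 100.4. Its gap was -1.05 (0.09), while the parental and Rb-deleted arrays themselves stood further apart than that. Ifi27, an interferon-induced gene, gave 1251, 878, 535 and 241 on the same arrays, with a gap of -0.73 (0.08). Ccl4, a chemokine of macrophages and other leukocytes, gave 495, 159, 108 and 94.8, with a gap of -0.70 (0.09). All 3 stepped down from the parental to the Rb-deleted array and again to the infected arrays. The difference between the means of the sides was -2.46 for Rsad2 (limma standard error 0.67), -1.57 for Ifi27 (0.39) and -1.69 for Ccl4 (0.51), each with an adjusted p of 0.84. Genes detected on both uninfected arrays and on neither infected array numbered 102. For 2 of these, Pik3ap1 and Phf11, the bound passed 1.6-fold (at least 1.85-fold and 1.77-fold lower on the infected arrays). That bound takes the mean of the 2 uninfected arrays. The gaps of Pik3ap1 and Phf11 were -0.56 and -0.24, both short of 1.6-fold.

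**Figure D2:**
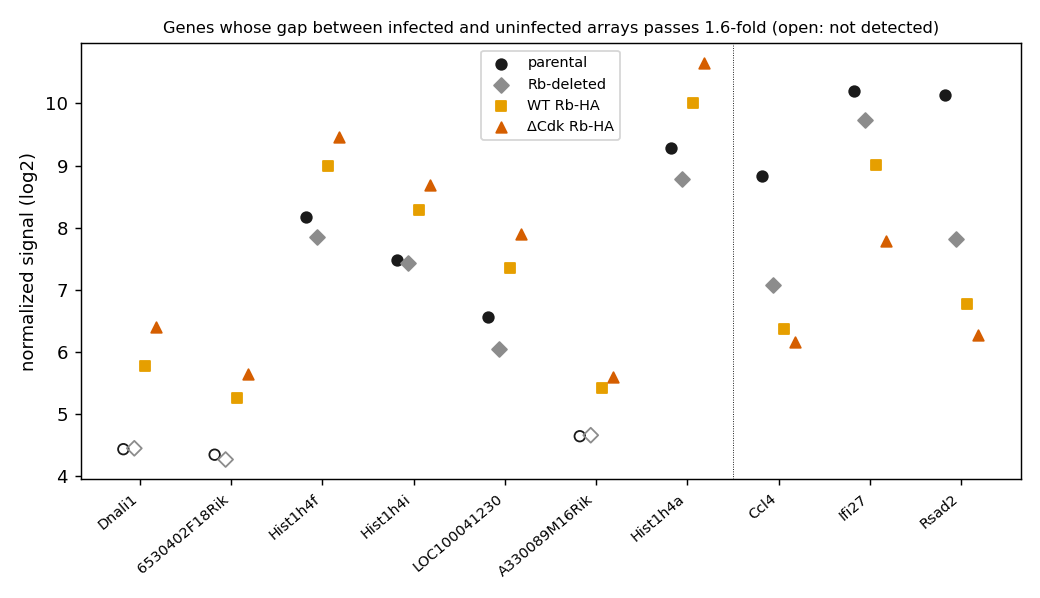
Normalized signal (log2, vertical axis) of the 10 genes whose gap passes 1.6-fold, with 1 marker per array and open markers where the probe was not detected. The 7 genes left of the dotted line are higher on both infected arrays, and the 3 genes right of it are lower on both, with the parental array at the top for all 3.

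Other probes of these genes were also read, which the choice of the brightest probe did not use. Hist1h4f was read by further probes at positions 21 and 16, detected on all 4 arrays, with gaps of 0.68 and 0.40. By these positions both begin within the 50 bases of the brightest probe, which starts at position 1. They are therefore not an independent check of it. A second Ccl4 probe, at position 215, gave 109, 57.1, 57.2 and 49.7 and was not detected on either infected array, so it gives no check. Over all separated genes, 832 other detected probes belonged to higher genes, and 43.3% of them were also separated higher, against 24.2% of all 5129 such probes, while 60 were separated lower. For lower genes 30.2% of 1145 other probes were separated lower, against 16.01% of all, while 188 were separated higher.

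The histone H4 probes are shown here because their genes led the higher side and because some of them share long runs of bases. Each probe is 50 bases long and all of these genes lie on chromosome 13. Capitals mark the longest run that a probe shares with another H4 probe.
Hist1h4f (from transcript position 1): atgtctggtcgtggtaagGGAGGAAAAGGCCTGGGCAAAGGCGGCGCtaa
Hist1h4i (from transcript position 91): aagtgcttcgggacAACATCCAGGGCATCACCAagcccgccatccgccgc
Hist1h4a (from transcript position 141): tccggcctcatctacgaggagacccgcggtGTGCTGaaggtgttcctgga
Hist1h4m (from transcript position 16): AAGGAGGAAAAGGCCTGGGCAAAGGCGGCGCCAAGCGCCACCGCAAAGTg
LOC100041230 (from transcript position 54): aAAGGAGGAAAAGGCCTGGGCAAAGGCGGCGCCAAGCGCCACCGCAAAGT
The probes of Hist1h4m and LOC100041230 shared 49 of their bases. Hist1h4f shared 29 bases with LOC100041230, whereas Hist1h4a shared no more than 6 with any other H4 probe. Binding of 1 H4 transcript to the probes of others was not measured here, so which H4 gene a value belongs to is uncertain.

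Most histone genes of 4 families were higher on both infected arrays, though some H1 and H3 genes by very small gaps. All 8 H4 genes analysed were separated higher, 8 of 10 H2B genes, and 7 of 8 H1 and H3 genes, against 17.0% of all genes, and none of these 26 genes was separated lower. The median difference between the means of the sides was 1.17 for H4, 0.94 for H2B and 0.55 for H1 and H3 genes, against -0.01 for all genes. Differences within the H4 list ran from 0.48 (Hist1h4d) to 1.48 (Hist1h4k). Hist2h2be led the H2B genes with intensities of 177, 152, 246 and 327, and Hist1h3a led the H3 genes with 101.5, 98.7, 134 and 205. By contrast, the gaps of Hist1h1c (0.02, bead standard error 0.06) and Hist1h3h (0.01, 0.05) lay within bead error. Summed intensity of the H1 and H3 list was 12852 on the parental array and 12834 with WT Rb-HA. H2B genes Hist1h2bc and Hist1h2bg were the exceptions in their family, with overlapping sides. For H4, 7 of the 8 genes were detected on all 4 arrays. None of these genes passed limma's adjusted test, while 8 H4, 8 H2B and 4 H1 and H3 genes had an unadjusted limma p below 0.05 (5.10% of all genes).

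The order of the arrays was nearly the same across these families. Of the 26 genes, 25 were lowest on the Rb-deleted array (22.9% of all genes) and 23 were highest on the ΔCdk Rb-HA array (24.8%). Compared with the Rb-deleted array alone, which shares TAT-Cre, the median H4 gene was higher by 1.16 on the WT Rb-HA array and by 1.68 with ΔCdk Rb-HA, and the median H2B gene by 1.12 and 1.5. Both infected arrays lay above the Rb-deleted array for 8 of 8 H4, 9 of 10 H2B and 8 of 8 H1 and H3 genes, against 32.6% of all genes. The Rb-deleted array itself was below the parental array, with a median difference of -0.49 for H4 and -0.77 for H2B genes.

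H2A genes gave lower counts. Of 15 analysed, 5 were separated higher (17.0% of all genes) and none lower (19.9% of all genes). For 8, both infected arrays lay between the uninfected arrays (22.1% of all genes). Hist2h2aa2 was separated, with intensities of 1626, 1577, 2077 and 2180. Hist1h2ad was not, with 1448, 3144, 2475 and 2652. The median H2A gene was 0.78 higher on the Rb-deleted array than on the parental array, opposite to H4 and H2B. Whether the H2A list differs from the others was not tested.

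**Figure D3:**
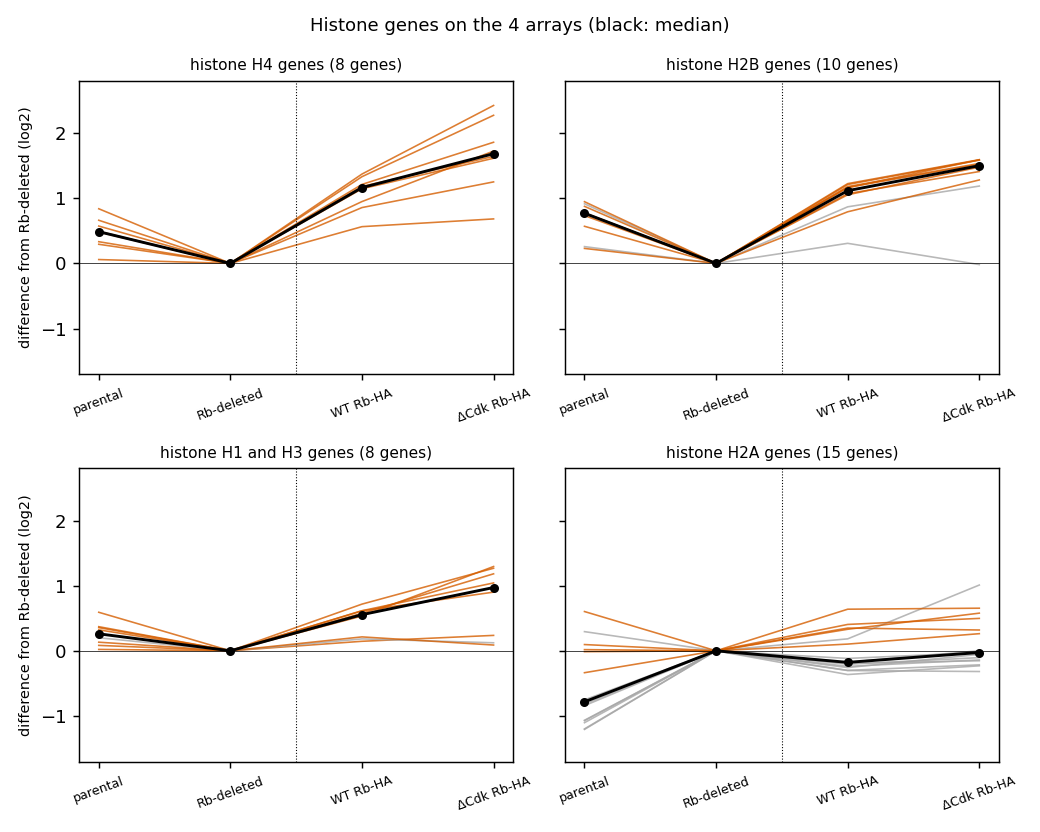
Difference of each histone gene from its value on the Rb-deleted array (log2, vertical axis) on the 4 arrays, with 1 line per gene, black for the median, and a dotted line between the uninfected and infected arrays. Orange lines are separated higher and grey lines overlap. H4, H2B, H1 and H3 genes dip on the Rb-deleted array and climb across the infected arrays, while most H2A genes are lowest on the parental array.

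Interferon-induced genes stood at the other end. Of 38 analysed, 21 were separated lower (19.9% of all genes) and 0 higher, and 2 of the 21, Rsad2 and Ifi27, passed 1.6-fold. Tyki, a nucleotide kinase gene also known as Cmpk2, gave 649, 160.5, 119 and 70.2, and Bst2, which encodes tetherin, gave 659, 331, 248 and 258. Oasl2, of the oligoadenylate synthetase family, gave 3690, 762, 658 and 212. The remaining genes of the list, such as Usp18 (4424, 924, 961 and 295) and Gbp2 (3261, 671, 682 and 351), had overlapping sides, and in these 2 genes the WT Rb-HA array lay at the level of the Rb-deleted array. Of the 38 genes, 37 were highest on the parental array and 33 lowest on the ΔCdk Rb-HA array, beside 29.7% and 29.6% of all genes.

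Most of the distance between the sides for these genes lay within the uninfected side. The median difference between the means of the sides was -1.37 for interferon-induced genes. The median difference of the Rb-deleted from the parental array was -1.54, and the median gene differed from the Rb-deleted array by -0.05 on the WT Rb-HA array and by -0.84 on the ΔCdk Rb-HA array. These values share the Rb-deleted array. Against the Rb-deleted array alone, both infected arrays were lower for 21 of 38 genes, where 40.8% of all genes were, and both were higher for 3. Without the Rb-deleted array, 37 of the 38 genes were lower on both infected arrays, where 37.9% of all genes were.

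Promoters of Rsad2 and Bst2 are shown because both genes were separated lower and both hold the core of an interferon-stimulated response element in these bases. Sequences are the 250 bases before the start of the gene, from RefSeq on GRCm38.p6, 5′ to 3′ on the gene's own strand (minus for both). Capitals mark GAAA, any 2 bases and GAAA again, searched on both strands.
Rsad2 (chr12:26456453-26456702): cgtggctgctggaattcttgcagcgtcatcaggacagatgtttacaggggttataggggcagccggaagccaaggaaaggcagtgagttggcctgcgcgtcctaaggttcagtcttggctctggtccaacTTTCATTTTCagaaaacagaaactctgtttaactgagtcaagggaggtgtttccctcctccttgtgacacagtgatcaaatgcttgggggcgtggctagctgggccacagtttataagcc
Bst2 (chr8:71537473-71537722): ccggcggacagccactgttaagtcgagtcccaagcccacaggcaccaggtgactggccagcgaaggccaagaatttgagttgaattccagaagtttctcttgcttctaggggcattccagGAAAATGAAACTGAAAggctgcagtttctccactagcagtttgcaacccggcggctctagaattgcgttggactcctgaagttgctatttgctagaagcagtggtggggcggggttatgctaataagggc
These letters were present before 3.46% of 27025 genes with a promoter in the table, 15 of the 28 interferon-induced genes analysed that had one (53.6%), and 4 of the 14 among those that were separated lower (28.6%). The share with a match was thus lower among the separated genes than in the whole list, so the 2 promoters shown are not typical of the separated genes. Whether the shares differ was not tested.

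Genes that restrict retroviruses and genes that sense nucleic acid showed a similar order, with 17 of 20 and 23 of 26 highest on the parental array (29.7% of all genes) and 14 and 18 lowest on the ΔCdk Rb-HA array (29.6%). Of 20 restriction and antiviral effector genes, 11 were separated lower (55%, against 19.9% of all genes) and 0 higher. Mov10, an RNA helicase that restricts retroviruses, gave 60.3, 58.7, 49.3 and 44.2 and was detected on the uninfected arrays only. Its signal was near background, and its bound was only at least 1.11-fold lower on the infected arrays. Samhd1, which depletes the nucleotides needed for reverse transcription, gave 403, 243, 202 and 190.4. Of 26 sensing genes and interferon regulatory factors, 14 were separated lower (53.8%) and 0 higher, among them Irf7 (372, 123, 118 and 58.6), a driver of interferon transcription, and the RNA sensors Ifih1 (240.2, 71.6, 69.6 and 46.3) and Dhx58 (189, 90.4, 78.5 and 49.9). For Irf7 the WT Rb-HA array lay close to the Rb-deleted array, with a gap of -0.07. Medians of the difference between the sides were -0.51 for the restriction list and -0.33 for the sensing list, beside -0.62 and -0.39 between the Rb-deleted and parental arrays. Both infected arrays were below the Rb-deleted array for 13 of 20 restriction genes and 15 of 26 sensing genes, beside 40.8% of all genes. Dhx58, Ifih1, Irf7, Bst2 and other members stand in more than 1 of these lists.

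Among 13 genes for receptors and entry of gammaretroviruses, 2 were separated higher (15.4%, against 17.0% of all genes) and 5 lower (38.5%, against 19.9%). Kpna2, an importin, gave 163, 163, 194 and 259.7, and Cpsf6, a cofactor of nuclear entry of some retroviruses, gave 199.7, 160.0, 218 and 272. Among the lower genes was Lmnb2, which encodes a nuclear lamin, with a gap of -0.04. Slc20a1 and Xpr1, genes of surface receptors for gammaretroviruses, were detected on all arrays and had overlapping sides, with Slc20a1 at 683, 505, 453 and 529 and Xpr1 at 426, 413, 419.7 and 337. Banf1 (1570, 1870, 1823 and 1936), Psip1 (407, 699, 485 and 464), Tnpo3 (649.8, 660.3, 652 and 597) and Tmpo (175, 242, 217 and 259) overlapped too.

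Markers of macrophages and other leukocytes were also highest on the parental array, for 23 of 25 genes analysed out of 35 listed symbols. Of the 25, 13 were separated lower and 0 higher, beside 19.9% and 17.0% of all genes. For 14 of the 25 both infected arrays were below the Rb-deleted array (56%), beside 40.8% of all genes. On the infected side the order of the markers was not that of the interferon-induced genes. ΔCdk Rb-HA lay above WT Rb-HA for 15 of 25 markers, 4 of 38 interferon-induced genes and 6106 of all 12604 genes. Whether the markers differ from all genes here was not tested. Emr1, which encodes the macrophage antigen F4/80, gave 773, 247, 203 and 198, Csf1r, the receptor of macrophage colony-stimulating factor, gave 272, 159, 134 and 140.1, and Laptm5 gave 2286, 860.2, 663 and 782. Their summed intensity was 14488 on the parental array and 7412 on the Rb-deleted array, and 6856 and 8455 on the infected arrays. Ptprc, the common leukocyte antigen, and Itgam were not detected on any array. Lyz2, a lysozyme gene of macrophages, was among the members with overlapping sides (834, 461, 429.7 and 696). In bulk RNA, fewer cells of a type and less RNA per cell cannot be told apart, and the part of leukocyte RNA in the interferon and chemokine values was not tested.

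Of 28 chemokine and cytokine genes, 6 were separated lower (21.4%) and 4 higher (14.3%), close to the shares of all genes (19.9% and 17.0%). With the Rb-deleted array alone, both infected arrays were lower for 6 (21.4%, beside 40.8% of all genes). They were higher than that array for 12 (42.9%, beside 32.6%). Besides Ccl4, the chemokine genes Ccl5 (1262, 329, 276 and 204) and Ccl3 (186, 69.9, 65.7 and 51.9) were lower, and Cxcl12, a stromal chemokine gene, gave 2220, 1651, 1481 and 1160. Ccl11, the gene of eotaxin, was higher on the infected arrays, with 314, 246, 386 and 1221, and Saa3, an acute phase gene, gave 122, 169, 212 and 238. The value of Ccl11 on the ΔCdk Rb-HA array stood far above the other 3.

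**Figure D4:**
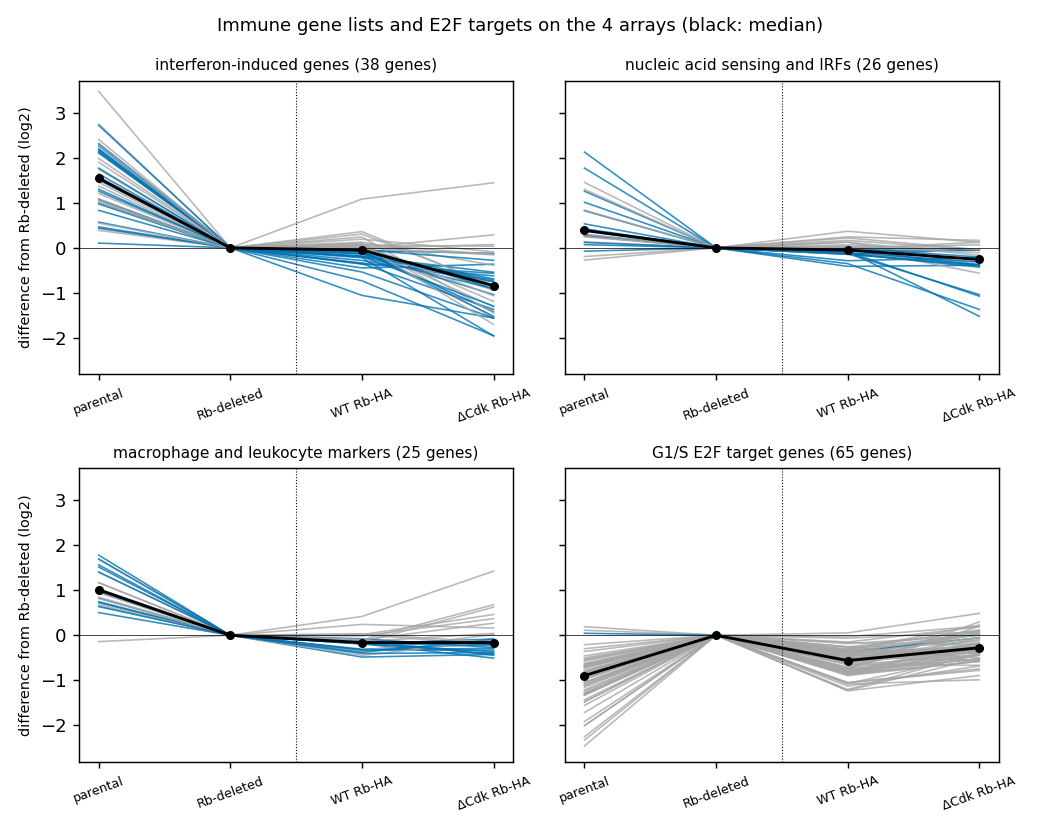
Difference of each gene from its value on the Rb-deleted array (log2, vertical axis) on the 4 arrays, with 1 line per gene, blue where separated lower, grey where the sides overlap, and black for the median. The largest step of the interferon and leukocyte lists is between the parental and Rb-deleted arrays, and for 46 of 65 G1/S E2F targets both infected arrays lie between them.

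G1/S E2F target genes, which Rb represses, were almost never divided by infection. Of 65 analysed, 46 had both infected arrays between the uninfected arrays (22.1% of all genes), 1 was separated lower (Gins3, with a gap of -0.05) and 0 higher, while 36.8% of all genes were separated. Of the 65, 49 were highest on the Rb-deleted array (29.4% of all genes) and 57 lowest on the parental array (31.0%). Mcm6, a subunit of the replicative helicase, gave 273, 1164, 507 and 624. Both infected arrays were below the Rb-deleted array for 50 of the 65, against 40.8% of all genes. G2/M genes gave 3 higher and 3 lower of 27, beside 17.0% and 19.9% of all genes, with Mki67 lower (102, 101.1, 74.9 and 83.8). Targets of p53 gave 6 higher and 7 lower of 35, close to the shares of all genes, with Cdkn1a at 13743, 14204, 13204 and 12998.

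Of 25 hypoxia and glycolysis genes, 9 were separated higher (36%, against 17.0% of all genes) and 0 lower (19.9% of all genes). Egln3, a hypoxia-induced prolyl hydroxylase gene, gave 358, 379.7, 439.7 and 455, and Pfkl, a phosphofructokinase gene, gave 661, 641, 742 and 1022. In this list 20 of 25 genes were highest on the ΔCdk Rb-HA array, as were 24.8% of all genes. Cholesterol and fatty acid synthesis genes gave 9 higher (33.3%) and 4 lower (14.8%) of 27, led by Nsdhl, a sterol dehydrogenase gene (242, 232, 326 and 346). Unfolded protein and heat shock genes gave 8 higher (28.6%) and 2 lower (7.14%) of 28. Calr, the gene of the chaperone calreticulin, gave 1218, 1078, 1508 and 1542, and Hspb1, a small heat shock protein gene, gave 1003, 731, 1210 and 1398. For these 5 genes the sides did not overlap and each gap was below 1.6-fold.

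The counts of the matrix and growth factor lists stand beside 17.0% higher and 19.9% lower among all genes. Collagen genes gave 1 higher and 9 lower (33.3%) of 27, with Col5a2 at 906, 554, 459 and 437 and Col4a1 at 7652, 7315, 6605 and 4921. Elastic fibre genes gave 0 higher and 4 lower of 18, and matrix metalloproteinases and their inhibitors gave 1 higher and 4 lower of 19. Myofibroblast and TGF-beta response genes gave 3 higher and 7 lower of 30, immediate early genes 4 higher and 10 lower of 33, and IGF axis and imprinted genes 2 higher and 5 lower of 21. Pocket protein and corepressor genes gave 4 higher and 1 lower of 27. Of the fibroblast markers only Pdgfra, a growth factor receptor gene, was separated lower (2103, 1836, 1342 and 1287), and S100a4 was separated higher with a gap of 0.02.

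Markers of other cell types were few, and their counts stand beside 17.0% higher and 19.9% lower among all genes. Endothelial markers gave 0 separated of 5 genes, epithelial markers 1 lower of 5 (Krt8), muscle markers 2 higher of 7 (Acta1 and Tnnc1), neural and glial markers 2 higher and 2 lower of 7, and mast cell and granule protease genes 2 higher and 1 lower of 8. Acta1, skeletal muscle actin, gave 654, 483, 692 and 992. Nes, the gene of nestin, gave 2493, 1821, 1553 and 1407. Of the 5 sex-linked genes, Xist (349, 380.0, 291 and 222) and Jarid1d (64.3, 60.5, 52.8 and 59.8) were separated lower, while Ddx3y (754, 751, 770.4 and 626), Eif2s3y (372, 325, 302 and 320.0) and Uty (56.1, 51.3, 59.7 and 53.6) overlapped.

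**Figure D5:**
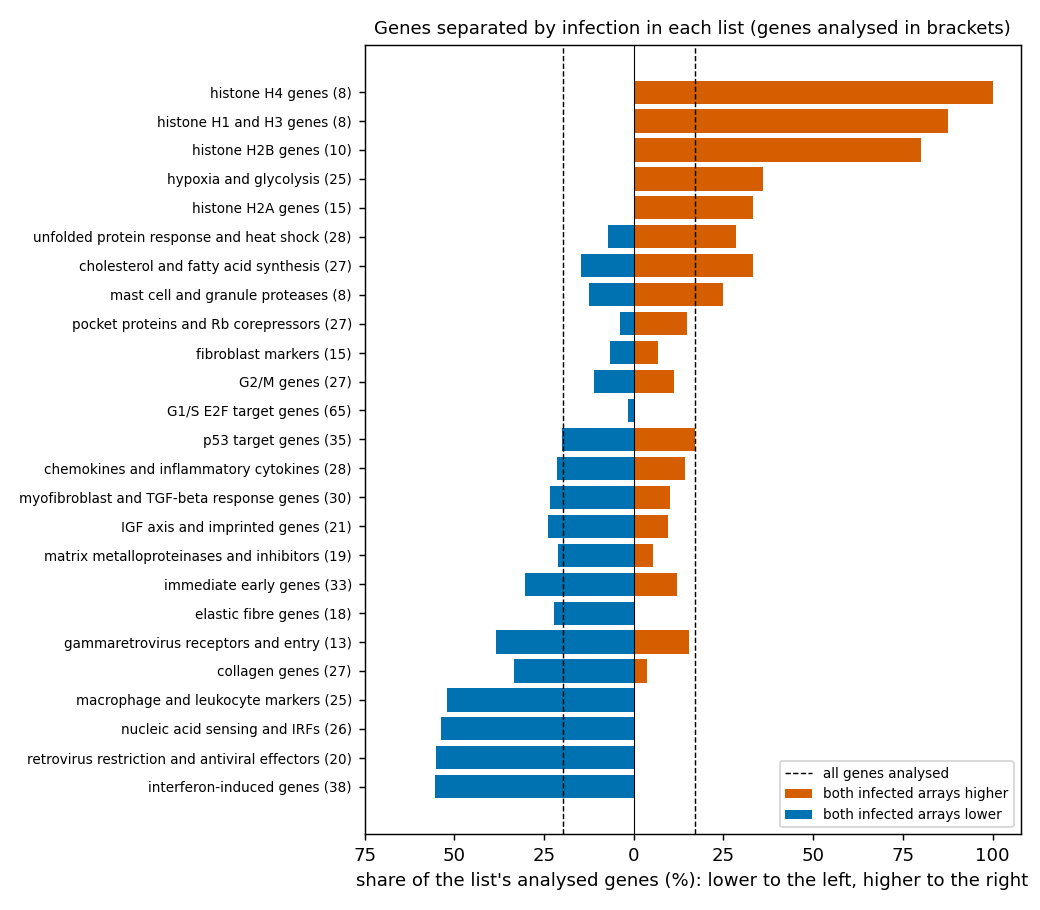
Share of each list's analysed genes (%, horizontal axis) that were higher on both infected arrays (orange, to the right) or lower on both (blue, to the left), for lists of at least 8 genes, with the number of genes in brackets. Dashed lines mark the shares over all genes, 17.0% and 19.9%. Histone H4 genes reach 100% on the higher side, and interferon-induced genes 55.3% on the lower side.

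Just short of 1.6-fold, which is 0.68 on the log2 scale, Hist1h4h (414, 260.3, 621 and 1138) had a gap of 0.67. Its second probe, at position 2, was not detected on any array (39.2, 38.5, 37.1 and 36.0). Some genes beyond the lists with wide gaps are named here after their values were seen. Prl2c3 and Prl2c4 belong to the prolactin family and lie on chromosome 13. Prl2c3 gave 173, 192, 272 and 482, and Prl2c4 gave 147, 148.3, 196 and 351. Serpinb2, a plasminogen activator inhibitor gene, gave 903, 688, 1196 and 1275, and Tsc22d1 gave 574, 633, 858 and 1250. On the lower side, Zeb2, a zinc finger repressor gene, gave 307, 279.6, 197 and 189.7, with a gap of -0.57 (0.08). Acan, the gene of the proteoglycan aggrecan, gave 116, 115, 89.5 and 64.7, and Hmga2, a chromatin protein gene, gave 224, 207, 142 and 160.4. In Zeb2, Acan and Hmga2 the parental and Rb-deleted arrays lay close together. Over all 2502 lower genes, the Rb-deleted array was the nearer uninfected array in 1451, and the ΔCdk Rb-HA array was the farther infected array in 1674. For the 2142 higher genes these counts were 1227 and 1410.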

How the data were processed

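Expression was measured once in each of 4 conditions of MEFs, grouped by the labels into 2 arrays with and 2 arrays without retrovirus. The authors deposited the intensity of every probe, averaged over its beads and not normalized, with a detection p-value, a bead standard error as a further intensity, and the number of beads (median 44), per the file headers. No scanner or summarizing software is given in the sources used here. The detection p-values of the 45281 probes follow the intensity, and 17746 probes had one below 0.01 on at least 1 array. Columns of per-sample values left unused numbered 0.

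Background was corrected with limma 3.58.1 (R 4.3.3) by normexp on the detection p-values with an offset of 16. Quantile normalization of the 4 arrays followed, and values are log2, which understates the fold of dim genes. The table held dates in place of 40 symbols, of which 34 were restored through the Entrez number with RefSeq (GRCm38.p6). Symbols that are a number (69 probes, 12 detected) were left out, since the file gives them neither a gene nor an organism. Sides were compared by the gap, by its bead standard error (rescaled to the normalized signal), and by limma's lmFit and eBayes with Benjamini-Hochberg adjustment at 0.05, whose spread between arrays is the spread between conditions. The code was tested on simulated data. Computations used Python 3.11.15, numpy 2.4.6 and pandas 2.3.3.

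Genes named were Rb1, up to 12 per direction with the largest gap past 1.6-fold (7 and 3 qualified, detected on both brighter arrays and separated without background correction too), up to 6 separated genes with the largest gap per list, detected members of the receptor and sex-linked lists, and examples chosen after their values were seen, among them overlapping members of lists and genes with lower ranks. Members and all 30 lists were chosen with earlier results of these data known. Alternatives changed the background correction, offset, normalization, detection filter, probes per gene, threshold and arrays used. Genome coordinates of probes, whose builds are mixed, were not used here.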

Additional observations from a re-analysis of the deposited data

Results flagged for a closer look

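Of 69 probes whose symbol is a number, and which stayed out of the comparison, 12 were detected on some array. For 4 of these, both infected arrays lay far above both uninfected arrays, more than for any named gene. The first gave intensities of 53 on the parental array, 44.8 after Rb deletion, 4720 with WT Rb-HA and 6993 with ΔCdk Rb-HA, with a difference of 7.32 on the log2 scale between the nearest arrays. It was not detected on the uninfected arrays, so this value rests on background signal, and the infected mean was at least 179-fold higher. The second gave 82.5, 77.1, 5459 and 7488 on the same arrays, with a gap of 6.55. The third gave 123, 105, 6540 and 9491, with a gap of 6.05. The fourth gave 41.7, 41.2, 976 and 1620, with a gap of 5.53 that also rests on background signal, and the infected mean was at least 39.8-fold higher. On each of the 4 probes the ΔCdk Rb-HA array was the brighter infected array. The remaining 8 detected probes of this kind had gaps from -0.06 to 0.14. The deposited table gives no gene for any of them, and what they measure was not tested.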

How the results depend on the processing

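Counts of separated genes stayed within 1.5 times of 2142 higher and 2502 lower under other background corrections, offsets, normalizations, probe rules and detection filters. The excess of lower genes turned with scaling to the median, which gave 2554 higher and 2186 lower (53.9% of separated genes higher, against 46.1%). Leaving out 1 array asks less of a gene and gave 3440 to 4812 higher and 3751 to 5144 lower genes. The 7 higher genes past 1.6-fold became 4 without background correction, 3 with an offset of 50, 4 when genes had to be detected on all 4 arrays, and 1 at 2-fold. The 3 lower genes became 2 without background correction, 2 with an offset of 50, 2 with the mean of probes, and 1 at 2-fold. Leaving out 1 array gave 12 to 113 genes higher and 3 to 223 lower past 1.6-fold, the 113 being without the WT Rb-HA array and the 223 without the Rb-deleted array. Limma called 0 genes under every planned setting apart from leave-one-out, where the count ran from 0 to 36, the 36 being without the Rb-deleted array. Of 1527 recomputed differences of named genes, 1474 moved by less than the spread within a side, 53 moved by more, and 0 changed sign. The number of separated H4 genes was 7 or 8 under every setting. The number of interferon-induced genes separated lower was 15 when detection on all 4 arrays was required, 19 with the mean of probes, and 37 without the Rb-deleted array. No paired analysis was possible because each array is a different condition, and the replicate numbers only name the arrays. Signal near background limits Dnali1, 6530402F18Rik, A330089M16Rik and Mov10, among others, and 1 array per condition limits every value.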
